A study of Homo sapiens with 30 samples.

Results

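The genes for CTCF, MBD3, TET1 and TET2 were examined as targets of the proteins they encode. All 4 proteins had been mapped by chromatin immunoprecipitation with sequencing (ChIP-seq) in HEK293T cells, which are an established line from human embryonic kidney. The members are peak regions that overlap a window around each gene, taken as the gene with about 20 kb on either side in the hg19 build. The CTCF window runs from 67576000 to 67693000 on chromosome 16 and the MBD3 window from 1556000 to 1613000 on chromosome 19. The TET1 window runs from 70300000 to 70475000 on chromosome 10 and the TET2 window from 106047000 to 106221000 on chromosome 4. Together they span 523 kb and hold 11 of the 70565 regions in the 8 peak lists.

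The cells had been edited at CTCF for auxin-inducible degradation. Per the labels' protocols they were co-transfected with the plasmids pcDNA3.1-ScFv-miniIAA7-mEGFP and pcDNA3.1-AtAFB2-mCherry. After 48 h the medium was replaced by fresh medium without auxin or with auxin (indole-3-acetic acid, IAA) at 0.5 mM, and cells were collected 72 h later. Both conditions therefore carry the edit and the plasmids. The characteristics of the cells without IAA read DMSO_72h, although the protocol names no DMSO. The sources used here do not say whether the edited line is 1 clone. Each antibody and condition had 3 samples, and inputs bring the total to 30 samples. Each list was made from the 3 samples of a group pooled, so the lists carry no replicate error, and no difference between conditions could be tested across cultures. The read depth behind the lists is unknown, and it bears on which weak regions were called.

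CTCF is a zinc-finger protein that binds a long DNA motif and anchors chromatin loops together with cohesin. MBD3 belongs to NuRD, a complex that remodels nucleosomes and removes acetyl groups from histones. TET1 and TET2 are dioxygenases that oxidise 5-methylcytosine, the first step of active DNA demethylation, and act mainly at CpG dinucleotides. A protein bound at its own gene may take part in an autoregulatory loop. Peak lists record where a protein was detected and do not measure the output of a gene.

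Without IAA, CTCF was called in all 4 windows, with 7 regions, and TET1 in 3 of them, with 4 regions. Every TET1 region lay on a CTCF region. MBD3 and TET2 were called in none of the windows, their own genes included. With IAA, no antibody gave a region in any window. So CTCF and TET1 had regions near their own genes in the cells without IAA, and MBD3 and TET2 had none there in either condition. At the mean density of each list without IAA, the own window would hold 1.63 CTCF, 0.929 TET1, 0.123 MBD3 and 0.0742 TET2 regions. The numbers called were 4, 1, 0 and 0. For TET1 the count at the own gene was therefore near the density of the list. For MBD3 and TET2 so few regions would be held at that density that a count of 0 says little. The CTCF count of 4 was above the density of its list, and fell to 1 with 20 kb taken from both ends of the window.

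All but 1 of these 11 regions lay outside the 4 genes, in the flanks of the windows. The share of the whole lists that lies within genes was not measured. The ends of each gene were taken as 20 kb in from the window edges, since no hg19 annotation was used here. The stretch between them is 77.0 kb for CTCF, 17.0 kb for MBD3, 135.0 kb for TET1 and 134.0 kb for TET2. RefSeq gene lengths in GRCh38.p14 are 76.7, 19.3, 134.2 and 133.9 kb in the same order, which differ from these by 0.349, 2.27, 0.850 and 0.0720 kb, so distances to a gene end are approximate. The sole region within 1 of the 4 genes was a weak CTCF region near the start of CTCF. Of the other 6 CTCF regions, 4 lay before the start of the gene of their window and 2 after the end of CTCF. Distances to other genes were not measured, so a region in a flank may lie nearer to another gene or inside it.

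The bases before the annotated starts are shown because no listed summit came nearer than 1.28 kb to any of the approximate starts. They show how much CpG, the setting in which TET proteins act, lies just before these starts. CpG after the starts was not counted. The 250 bases before the start are from RefSeq, GRCh38.p14, read 5′ to 3′ in the direction of transcription, with each CpG in capitals. CTCF has 1 start in that table, MBD3 has 1, TET1 has 3 and TET2 has 2. For TET1 the first is shown, and for TET2 both.
CTCF: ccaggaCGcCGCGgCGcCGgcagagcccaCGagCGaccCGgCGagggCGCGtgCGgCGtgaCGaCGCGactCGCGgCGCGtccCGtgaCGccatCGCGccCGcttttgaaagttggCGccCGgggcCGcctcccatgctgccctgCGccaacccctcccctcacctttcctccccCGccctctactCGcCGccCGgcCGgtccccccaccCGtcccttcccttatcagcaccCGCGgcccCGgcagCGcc
MBD3: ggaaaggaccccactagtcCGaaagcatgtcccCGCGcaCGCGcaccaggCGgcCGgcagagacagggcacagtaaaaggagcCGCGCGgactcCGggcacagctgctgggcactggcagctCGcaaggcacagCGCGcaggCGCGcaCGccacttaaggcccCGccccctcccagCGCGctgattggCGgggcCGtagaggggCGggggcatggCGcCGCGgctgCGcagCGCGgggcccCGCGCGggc
TET1: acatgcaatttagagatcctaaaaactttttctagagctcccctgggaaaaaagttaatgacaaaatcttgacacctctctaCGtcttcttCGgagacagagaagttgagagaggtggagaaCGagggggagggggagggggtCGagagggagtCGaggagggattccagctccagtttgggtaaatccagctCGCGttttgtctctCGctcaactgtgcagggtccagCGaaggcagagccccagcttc
TET2, first start: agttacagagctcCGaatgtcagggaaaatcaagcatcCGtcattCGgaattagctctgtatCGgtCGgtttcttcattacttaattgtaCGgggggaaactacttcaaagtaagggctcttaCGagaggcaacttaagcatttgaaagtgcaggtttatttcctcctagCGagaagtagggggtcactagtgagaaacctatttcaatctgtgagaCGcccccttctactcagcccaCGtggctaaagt
TET2, second start: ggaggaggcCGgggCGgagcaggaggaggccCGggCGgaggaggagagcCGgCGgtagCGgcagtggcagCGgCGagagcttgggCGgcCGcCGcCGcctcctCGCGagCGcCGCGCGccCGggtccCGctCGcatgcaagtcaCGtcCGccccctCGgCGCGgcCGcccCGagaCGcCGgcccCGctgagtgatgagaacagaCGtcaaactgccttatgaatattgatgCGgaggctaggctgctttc

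These stretches before the starts differed in their number of CpGs, also between the 2 starts of TET2. The CTCF sequence holds 39 CpGs at 76.8% G and C, a number reached by 2.65% of the 35116 promoters in the table. MBD3 holds 32 CpGs (9.52% of promoters hold as many) and the second TET2 start holds 34 (6.84%). The first TET2 start holds 10 and the TET1 start shown holds 9, near the median of 11 over all promoters. The other TET1 starts hold 4 and 11. No MBD3, TET1 or TET2 region had a summit nearer than 4.74 kb to the approximate start taken for each gene. Distances to each annotated start of TET1 and TET2 were not measured. The sequences under the regions themselves were not read, since no hg19 genome was used here.

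**Figure D1:**
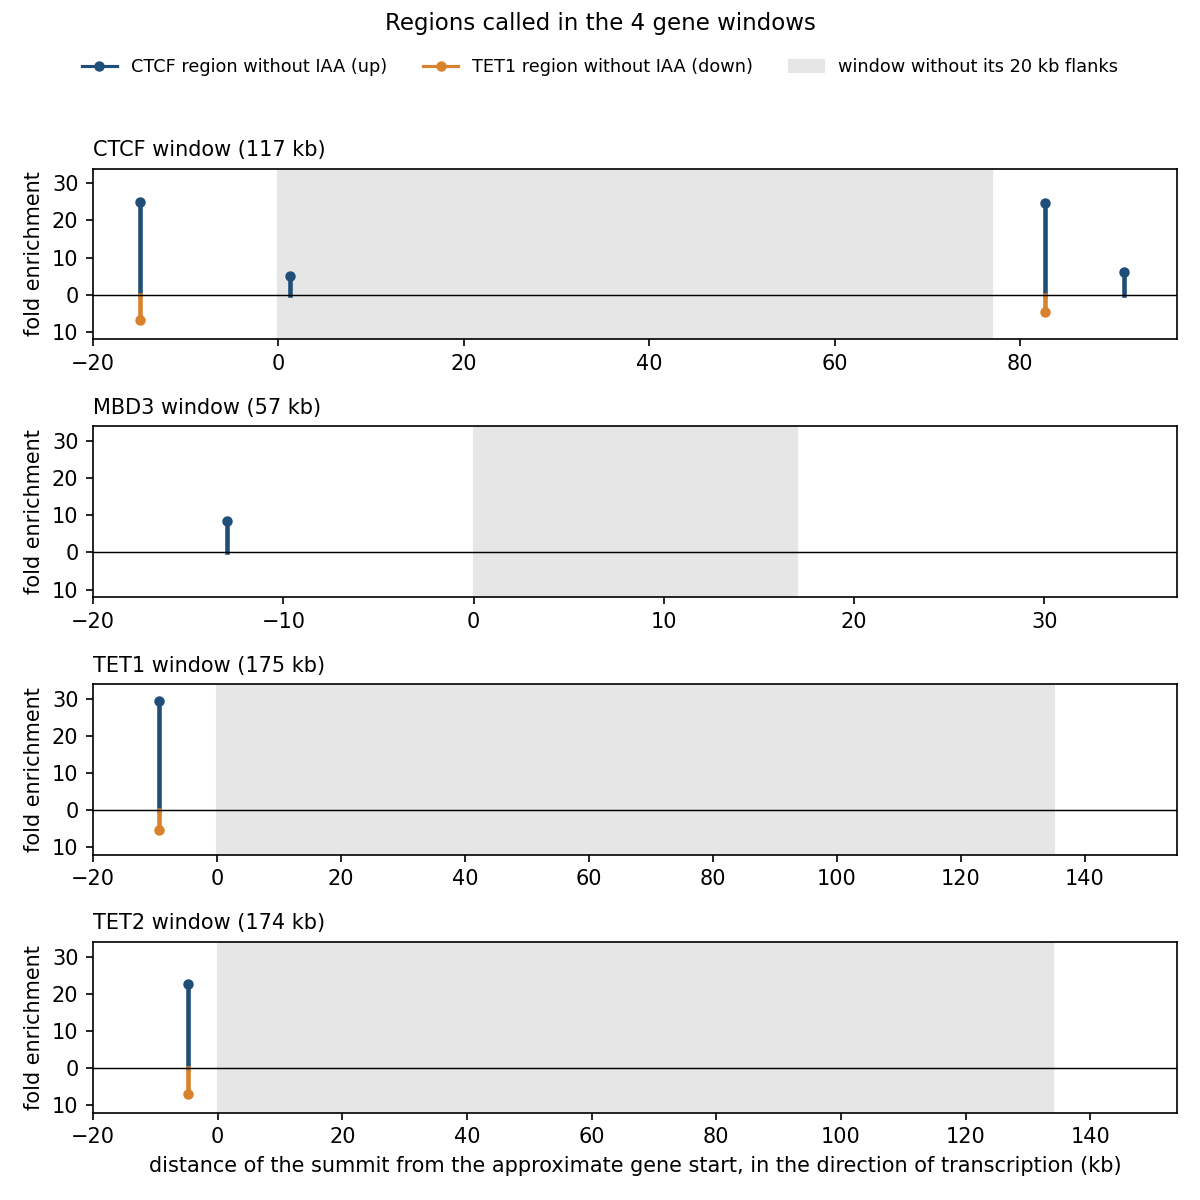
Fold enrichment (vertical axis, CTCF regions drawn upwards and TET1 regions downwards, both read as positive values) against the distance of the summit from the approximate gene start in kb (horizontal axis, in the direction of transcription, a different scale in each panel), without IAA. The shaded stretch is the window without its 20 kb flanks; 1 CTCF region, at 5.01-fold, lies inside it in the CTCF window and 0 in the other windows.

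The CTCF window had the most regions, with 4 of CTCF and 2 of TET1. Fold enrichment below is the value of the authors' peak caller for each peak, over its own background, and is used only within 1 list. The strongest CTCF region of the window lay 14.9 kb before the start of CTCF, on the side of its neighbour RIPOR1, at chr16:67580872-67581259. It had 25.0-fold enrichment and ranked 10104 of 42925 by fold, in the top 23.5% of the list. TET1 was called on it at chr16:67580966-67581129 with 6.86-fold enrichment, rank 9102 of 16246 in the TET1 list. The 2 summits were 7 bp apart.

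A second CTCF region of almost the same fold lay 5.75 kb after the end of CTCF, on the side of CARMIL2, at chr16:67678613-67678899. It had 24.7-fold enrichment, rank 10400. Its −log10 q, the significance given by the peak caller, was 138.8, the highest of the 7 CTCF regions. TET1 was called there at chr16:67678682-67678834 with 4.80-fold enrichment, rank 13382, the lowest fold of the 4 TET1 regions, with summits 6 bp apart. The gene that encodes CTCF was thus flanked on both sides by a CTCF region with TET1.

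The other CTCF regions of that window were weak and had no TET1 region. The one inside the gene, at chr16:67597176-67597368, had its summit 1.28 kb past the approximate start. It had 5.01-fold enrichment and a −log10 q of 6.17, rank 38643 of 42925, so 90.0% of the list ranked at or above it by fold. The other, at chr16:67687127-67687425, lay 14.2 kb after the end and had 6.04-fold enrichment and rank 36000.

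The MBD3 window held 1 region, of CTCF alone. It lay at chr19:1605848-1606071, 13.0 kb before the start of MBD3 on the side of UQCR11, with 8.40-fold enrichment and rank 29975, in the lower part of the list. The nearest MBD3 regions were 634 kb from the window on one side and 240 kb on the other. They had 3.43- and 4.26-fold enrichment, ranks 6433 and 5343 of 6608, and both were shared with CTCF and TET1.

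The TET1 window held 1 place, called with CTCF and with TET1, in 175.0 kb. The CTCF region, at chr10:70310532-70310874, lay 9.29 kb before the start of TET1 on the side of SLC25A16. At 29.4-fold and rank 7134 it was the strongest of the 7 by fold. The TET1 region on it, at chr10:70310581-70310800, had 5.39-fold enrichment, rank 12253, and a summit 8 bp away. The protein was thus called in front of its own gene, in the lower part of its list by fold (75.4% of regions ranked at or above it). Its −log10 q there was 8.26.

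The TET2 window likewise held 1 place, with CTCF and TET1. The CTCF region lay at chr4:106062119-106062413, 4.74 kb before the approximate start of TET2 on the side of CXXC4, with 22.7-fold enrichment and rank 12008. TET1 was called at chr4:106062167-106062327 with 7.11-fold enrichment, rank 8581, the highest fold of the 4 TET1 regions, and the summits were 2 bp apart. TET2 itself was called on chromosome 4 without IAA at 0.482 regions per Mb, against 0.427 per Mb over chromosomes 1 to 22 and X. The nearest TET2 regions were 10.7 Mb to the left and 2.92 Mb to the right of the window, at 6.20- and 5.99-fold.

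**Figure D2:**
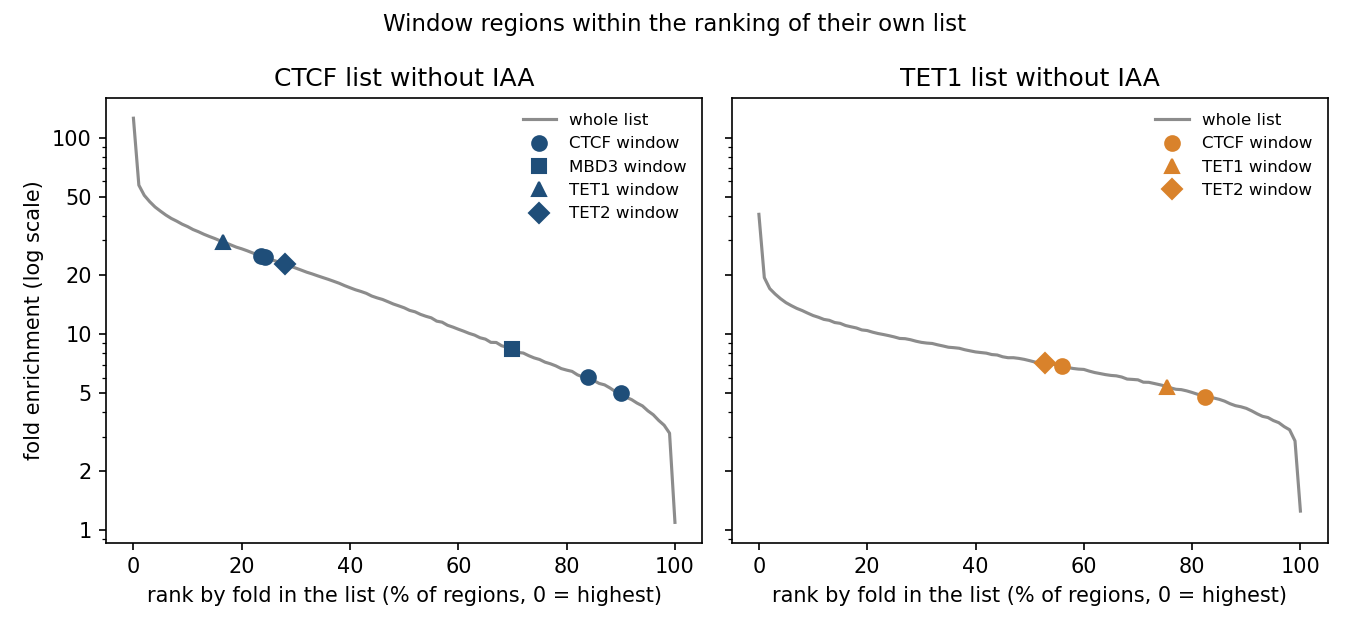
Fold enrichment (vertical axis, log scale) against rank by fold as a percentage of the list (horizontal axis, 0 is the highest) for the CTCF and TET1 lists without IAA. The grey line is the whole list and the symbols are the window regions, by window: the CTCF symbols run from 29.4-fold to 5.01-fold and the TET1 symbols from 7.11-fold to 4.80-fold.

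TET1 was called on the stronger CTCF regions of the windows and not on the weaker ones. The 4 CTCF regions with TET1 had 22.7-, 24.7-, 25.0- and 29.4-fold enrichment, and the 3 without had 5.01-, 6.04- and 8.40-fold, so these sets did not overlap. As a share, 4 of 7 CTCF regions had TET1, or 57.1% (Wilson 95% interval 25.0% to 84.2%, which covers counting error over regions only), against 34.4% of the whole CTCF list. In the other direction, 4 of 4 TET1 regions lay at CTCF (interval 51.0% to 100%), against 91.1% of the whole TET1 list. Across the genome the share with TET1 also differed by fold. Of the 7618 CTCF regions of 20- to 30-fold, 65.7% had TET1, and of the 11798 of 5- to 10-fold, 4.74% had it. These ranges were chosen after the fold of the window regions was seen.

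The strengths of the 2 proteins did not rank alike within the windows. The strongest CTCF region, by TET1, carried a TET1 region of 5.39-fold, and the weakest CTCF region with TET1, by TET2, carried the one of 7.11-fold. With 4 places this is a description. The median fold of the 7 CTCF regions was 22.7, against 13.6 (quartiles 7.43 and 24.2) for the list. The median of the 4 TET1 regions was 6.12, against 7.32 (quartiles 5.44 and 9.68). Summits of the pairs were 2 to 8 bp apart, against a median of 7 bp (quartiles 3 and 13) for all 14798 TET1 regions at CTCF.

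MBD3 and TET2 were not called at these places, and across the genome few CTCF regions of that strength carried either. MBD3 was called at 0 of 7 window CTCF regions (upper limit of the interval 35.4%), against 8.67% of the whole CTCF list, 9.19% of the regions of 20- to 30-fold, and 1.16% of those of 5- to 10-fold. Among the 4 window CTCF regions with TET1 it was called at 0 (upper limit 49.0%), against 22.9% of all CTCF regions with TET1. TET2 was called at 0 of 7, against 1.10% of the whole list, 0.341% at 20- to 30-fold, and 1.36% at 5- to 10-fold. Among the 4 with TET1 it was called at 0, against 1.79% of all CTCF regions with TET1. With 7 or 4 regions a difference from these shares was not detectable.

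**Figure D3:**
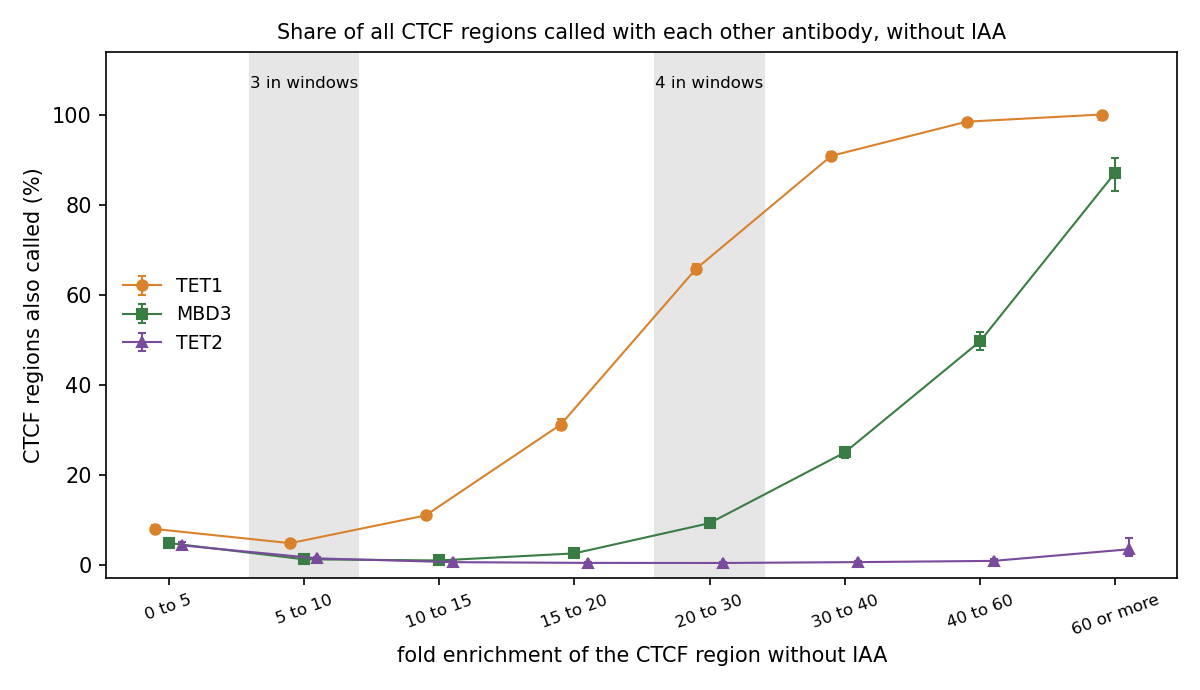
Percentage of all CTCF regions without IAA that shared at least 1 bp with a TET1, MBD3 or TET2 region (vertical axis, bars are Wilson 95% intervals) by fold enrichment of the CTCF region (horizontal axis). Shaded columns hold the window regions: the 3 at 5- to 10-fold, where 4.74% of all CTCF regions had TET1, and the 4 at 20- to 30-fold, where 65.7% had it.

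The number of regions in the windows was close to what the length of each list gives for 523 kb. CTCF had 13.4 regions per Mb in the windows and 13.9 per Mb over chromosomes 1 to 22 and X, and TET1 had 7.65 and 5.31. At the mean density of their lists, MBD3 without IAA would give 1.13 regions in the windows and TET2 0.223, so a count of 0 says little about either. The windows differed among themselves. CTCF had 34.2 CTCF regions per Mb around its own gene against 15.9 per Mb on chromosome 16, and 17.5 around MBD3 against 29.4 on chromosome 19. Around TET1 it had 5.71 against 14.6 on chromosome 10, and around TET2 5.75 against 11.4 on chromosome 4. Each of these window values rests on 1 to 4 regions.

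The region at each window edge shows how the choice of 20 kb acts. The CTCF window ended before the strongest site of that neighbourhood, which lay 20.2 kb outside its left edge at chr16:67554954-67555765, with 44.4-fold enrichment. CTCF, TET1 (12.2-fold) and MBD3 (6.57-fold) were all called there without IAA, and it held the MBD3 region nearest to any of the 4 windows. The nearest CTCF region inside that edge was the one of 25.0-fold, 4.87 kb in. On the right the nearest inside and outside were 6.04-fold and 3.43-fold, 5.58 kb in and 7.67 kb out. The MBD3 window just missed a CTCF region with TET1, 9.43 kb outside its left edge, of 32.6-fold, and on the right one of 6.88-fold, 5.29 kb out. The region inside both its edges was the one of 8.40-fold. A TET2 region of 4.58-fold, at chr10:70480797-70480944, lay 5.80 kb past the right edge of the TET1 window and was called with no other antibody. The nearest CTCF regions outside the TET1 window were 133 kb and 77.0 kb away, at 5.75- and 5.61-fold. Those outside the TET2 window were 195 kb and 172 kb away, at 7.06- and 30.3-fold. In both of these windows the region inside was the single one already described.

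With IAA, the windows were empty in all 4 lists. Of the 7 CTCF regions, 0 were still called (upper limit of the interval 35.4%), and in the whole list 99.9% were no longer called. Of the 4 TET1 regions 0 were still called (upper limit 49.0%), against 99.8% no longer called in the whole list. For CTCF regions of 20- to 30-fold, 99.9% were no longer called, so the windows held no exception to a loss seen across the list. The lists with IAA held 63 CTCF, 50 MBD3 and 325 TET1 regions, against 42925, 6608 and 16246 without IAA. The TET2 list was longer with IAA, with 3022 regions against 1326. At the mean density of the lists with IAA the 523 kb would hold 0.0109 CTCF, 0.00793 MBD3, 0.0538 TET1 and 0.499 TET2 regions.

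The nearest regions with IAA lay outside the windows at distances from kilobases to megabases. In the TET2 list one of 3.97-fold lay 31.3 kb left of the MBD3 window at chr19:1524524-1524689. Its −log10 q of 1.34 was near the lowest value in any list, 1.30. By the TET2 gene the nearest TET2 regions with IAA were 2.87 and 4.43 Mb away, at 6.87-fold (rank 334 of 3022) and 4.26-fold (rank 2157). The CTCF region with IAA nearest to any of the 4 windows lay 0.793 Mb right of the TET1 window at chr10:71267633-71267860, with 4.46-fold enrichment, rank 42 of 63. It had also been called without IAA, with TET1. For the other genes the nearest CTCF region with IAA was 15.8 Mb from the MBD3 window, 17.5 Mb from the CTCF window and 67.3 Mb from the TET2 window. The TET1 region with IAA nearest to the TET1 window was 9.88 Mb away, at 5.72-fold (rank 32 of 325). The MBD3 region with IAA nearest to the MBD3 window was 26.1 Mb away, at 2.16-fold (rank 26 of 50) and a −log10 q of 291.3. That place was called in every list except TET2 with IAA, so it was not particular to MBD3.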

How the data were processed

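The deposited files are 8 peak lists in hg19, 1 per antibody and condition, each from the 3 samples of a group pooled by the authors, per the labels. Tools listed, with no role, in the submitters' processing notes are MACS2 2.1.2, Bowtie2 2.3.4, bedtools 2.25.0, SAMtools 1.9 and FastQC 0.11.7. The sources used here do not name the control. Each deposited peak has a fold enrichment (a ratio), a −log10 q, a score made from −log10 q by the authors, and a summit offset. Samples were grouped by title.

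Rows of 1 list that shared 1 bp were joined, keeping the highest fold and −log10 q. Regions sharing 1 bp were counted as shared. Values were ranked only within a list. Density used the highest listed position of each chromosome (3035.1 Mb for 1 to 22 and X). Python 3.11.15 and SciPy 1.17.1 gave the Wilson 95% intervals. Joining and sharing were tested on simulated data. No test between conditions was made, since each group is 1 pooled list. Named regions were all members, the nearest region outside each window and those at the edges. The members, lists and windows were chosen with earlier results of these data known. Counts at the other genes of the NuRD, DNA methylation and cohesin groups were planned and were not run, since no hg19 annotation was used here.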

Additional observations from a re-analysis of the deposited data

How the results depend on the processing

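The counts in the windows were repeated under 8 other settings. Of the 20 totals over the 4 windows whose reported count was above 0, 8 moved by over 1.5 times, with the threshold or the window. Counts of 0 could change under few settings and are not counted here. At −log10 q of at least 10, TET1 fell from 4 regions to 1, which lay on a CTCF region in the CTCF window. The TET1 region by the TET1 gene was lost at that threshold. With 20 kb taken from both ends of each window, CTCF fell to 1 region and TET1 to 0, with 0 at CTCF. With 50 kb added to both ends, there were 19 CTCF, 9 TET1, 1 MBD3 and 1 TET2 regions without IAA, of which 9 TET1 and 1 MBD3 lay at CTCF. That setting also gave 1 TET2 region with IAA, called with IAA only. Of the 42 counts in single windows that started above 0, 15 moved by over 1.5 times. The number of CTCF and of TET1 regions still called with IAA was 0 in each of the 8 settings, including the 19 and 9 regions of the wider windows. Stricter thresholds, the 50% overlap and the narrower windows could only leave it at 0. An overlap of 50% of both regions counted 3 of the 4 TET1 regions as at CTCF. No paired analysis was possible because each list pools the 3 samples of a group, and for the same reason no sample could be left out. The unknown depth limits what can be said of weak regions.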
